A study of Mus musculus
Mus spretus with 18 samples.

Results

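Ca2+/calmodulin-dependent protein kinase II (CaMKII) is encoded in the mouse by 4 genes, Camk2a, Camk2b, Camk2d and Camk2g, which encode the α, β, δ and γ subunits. The genes were taken by their symbols from the expression table and from the tables of skipped-exon (SE) events. They were 4 of 38924 genes, and they held 76 of 124450 SE events over 55 distinct exons. Camk2a had 12 of these events, Camk2b 16, Camk2d 24 and Camk2g 24. An SE event is a cassette exon that is joined to its neighbours or left out, and its percent spliced in (PSI, here from 0 to 1) is the share of the form that includes it. In GRCm38.p6, RefSeq places Camk2a at chr18:60925307-60988152, Camk2b at chr11:5969629-6066357, Camk2d at chr3:126595487-126846326 and Camk2g at chr14:20734873-20794157.

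The samples came from F1 hybrids of a C57BL/6J mother and a SPRET/EiJ father, so that every cell carried 1 allele of each strain in the same cellular environment. Cerebral cortex, heart, kidney, lung, spleen and liver were taken at the age of 8 weeks from 2 untreated female animals, embryonic stem cells (ESC) were 2 clones grown in 2i and LIF, and each tissue or cell type had 2 replicates. F1 fibroblasts, a cultured line whose replicates were not said to be separate cultures, were treated for 4 h with 0.1 µM pladienolide B, an inhibitor of the SF3B complex, or with DMSO alone, again with 2 replicates each. RNA-seq reads were counted over splice junctions, both in all and for the reads that could be assigned to 1 allele. The strain labels of the 2 liver samples read C57BL/7J x SPRET/EiJ and C57BL/8J x SPRET/EiJ, and these samples were kept as liver. The label of the DMSO samples repeats the dose of 0.1 µM, which for them was the matched volume of solvent in the study's protocol. Since the C57BL/6J allele was always maternal, strain and parent of origin cannot be told apart. No gene was deleted or added in any group.

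CaMKII holoenzymes are assembled from subunits of these genes and are switched on when calmodulin, loaded with Ca2+, binds the regulatory segment of each subunit. The kinase then phosphorylates itself and can stay active after the Ca2+ signal has ended. In neurons the α and β subunits are abundant at synapses and act in synaptic plasticity, whereas the δ and γ subunits serve heart muscle, where CaMKII phosphorylates Ca2+-handling proteins. The catalytic and regulatory segments are much alike among the subunits, and the isoforms differ mostly in the variable linker that leads to the association domain. Alternative exons of the linker can carry a nuclear localization signal, as in the αB, δB and γA isoforms, or sites that bind actin, as in β.

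Camk2a and Camk2b were highest in cortex, the Camk2d levels of heart and cortex overlapped, and Camk2g was present in every tissue. The TPM scale divides reads by transcript length and then by the sum of such values over the library. Camk2a was at 1046 and 1075 TPM in the 2 cortex samples, 24.9 and 23.3 TPM in heart and 0.0474 and 0.0355 TPM in liver. ESC, spleen, lung and kidney lay in between, with mean levels of 5.57, 2.34, 1.63 and 0.402 TPM. The cortex samples did not overlap those of any other tissue, and the mean cortex level of 1061 ± 20.4 TPM (SD, n = 2) exceeded that of heart by 5.46 (SE 0.18) on the log2(TPM + 0.1) scale. A muscle product of the Camk2a gene, the anchoring protein αKAP, lacks the kinase domain and cannot be told apart from the kinase at the level of a gene. In bulk tissue, fewer cells of a type and less RNA per cell cannot be told apart.

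Camk2b, whose β subunit binds actin filaments, reached 311 and 333 TPM in cortex. ESC held 6.05 and 12.6 TPM, so that the clones differed, and lung held 5.02 and 5.11 TPM. Heart had 2.95 and 2.90 TPM, and spleen, kidney and liver had mean levels of 1.98, 1.41 and 1.32 TPM. Below cortex, the neighbours in this order differed by less than 2-fold and were not called apart. With each sample centred on its median, spleen and kidney were called below liver, with log2 differences of −1.39 and −1.58. Camk2b was below 1 TPM in all 4 fibroblast samples, at 0.470 and 0.473 TPM with DMSO and 0.354 and 0.341 TPM with pladienolide B.

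Camk2d, whose δ subunit acts in heart muscle, was at 27.2 and 30.3 TPM in cortex and at 28.9 and 28.2 TPM in heart. These ranges overlapped, and the log2 difference of 0.01 (SE 0.27) was not called (adjusted p = 1, limma with Benjamini-Hochberg adjustment). The median of all genes was higher in cortex than in heart by 0.81, so that relative to this median Camk2d was lower in cortex by 0.80 on the log2 scale, and with each sample centred on its median the difference was −1.32 and was called (adjusted p = 4.4e-04). Spleen followed with 14.6 and 13.0 TPM, then lung with a mean of 8.41 TPM, kidney with 4.99 TPM, ESC with 4.09 and 1.87 TPM, and liver with 0.916 and 0.964 TPM. The steps from heart to spleen and from ESC to liver were called, and the steps between spleen, lung, kidney and ESC were not. With each sample centred on its median, the step from ESC to liver turned from 1.47 to −0.37 and was not called (adjusted p = 0.174).

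Camk2g was at 221 TPM in each cortex sample, 53.6 and 47.5 TPM in heart, 43.2 and 42.5 TPM in lung, 24.7 and 35.3 TPM in ESC, 31.0 and 25.9 TPM in spleen, 23.3 and 23.5 TPM in kidney and 7.58 and 7.71 TPM in liver. The 5 tissues from heart to kidney formed a run in which no neighbouring pair was called. Across the 21 tissue pairs, 64 of the 84 differences of the 4 genes were called (adjusted p under 0.05 over all genes and pairs, and at least 2-fold), against a background of 56.7% of all gene and pair combinations. Camk2a was called in 20 of 21 pairs, Camk2d in 17, Camk2b in 15 and Camk2g in 12. With each sample centred on its median 58 were called, 51 of them among the 64 and in the same direction. The centring turned the sign of 4 of the 64, all against liver and none called after it. These were Camk2d in ESC (above) and Camk2g in kidney (from 1.60 to −0.06) and spleen (from 1.88 to −0.07), and Camk2b in lung (from 1.87 to −0.13).

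**Figure D1:**
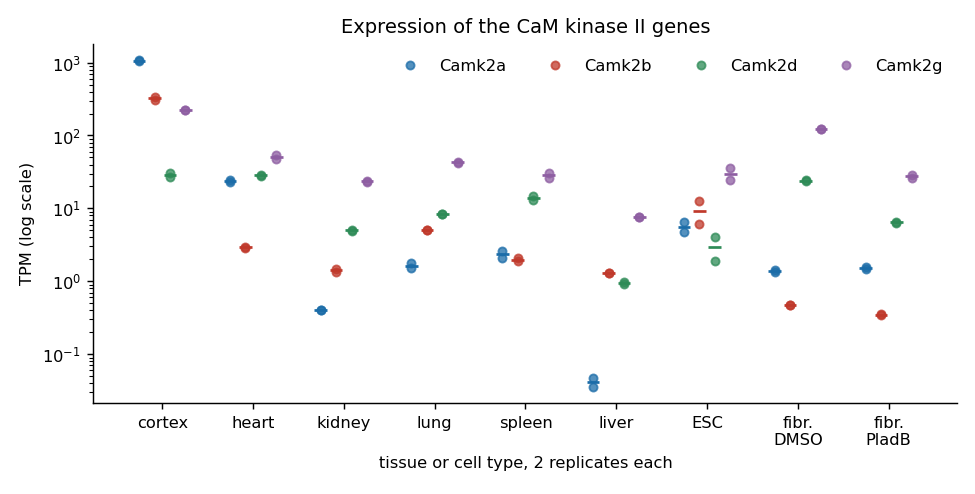
TPM of the 4 CaM kinase II genes (log axis) in 7 tissues or cell types and in fibroblasts with DMSO or pladienolide B (PladB); points are the 2 replicates and the short lines their mean. The points of Camk2a span from 0.0355 TPM in liver to 1075 TPM in cortex, whereas those of Camk2g stay between 7.58 and 221 TPM.

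The make-up of the family therefore differed by tissue. In cortex the 4 genes summed to 1632 TPM, of which Camk2a made up 65.0%, Camk2b 19.7%, Camk2g 13.5% and Camk2d 1.76%. In heart they summed to 106 TPM, of which Camk2g made up 47.6%, Camk2d 26.9%, Camk2a 22.7% and Camk2b 2.76%. Camk2g made up 77.5% in kidney, 76.9% in liver, 73.9% in lung, 62.7% in ESC and 61.1% in spleen, and 82.5% in fibroblasts with DMSO. Spleen had the highest share of Camk2d, 29.6%. These shares are of transcripts, and the protein was not measured. In heart, the share of Camk2a was not split between the kinase and αKAP.

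Marker genes were read to see what the samples held. In each sample, the markers of its own tissue or cell type were all at 1 TPM or more. Of 5 neuronal markers, all were at 1 TPM or more in both cortex samples, with sums of 2731 and 2990 TPM. In heart, Slc17a7 alone among them passed 1 TPM, at 49.8 and 37.0 TPM, and the other neuronal markers summed to under 1 TPM in each sample. The 4 cardiomyocyte markers, led by Tnnt2 and Actc1, summed to 53795 and 53865 TPM in heart. They also summed to 1067 and 851 TPM in lung, and their part in the lung values was not tested.

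Of 45 genes that encode calmodulin, CaMKII inhibitors, other CaM kinases, phosphatases and targets, 41 were called higher and 0 lower in cortex than in the mean of the other 6 tissues, against 35.4% of all genes called higher and 20.2% lower. Their median log2 difference was 4.29, against 0.38 for all genes. Camk2n1 and Camk2n2, which encode inhibitors that bind the active kinase, were higher by 5.60 and 5.89. All 10 synaptic targets and anchors were higher, such as Grin2b, the NMDA receptor subunit that docks CaMKII, by 9.46. The cardiac group was also higher in cortex in 7 of 8 genes.

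In heart, 9 of the 45 were called higher and 20 lower than in the mean of the other 6 tissues, where 11.6% of all genes were higher and 37.5% lower. Of the 9, 7 were from the group of 8 cardiac targets and anchors. Pln, which encodes the SERCA inhibitor phospholamban, differed by 11.48 (3738 and 3974 TPM in heart, at most 21.2 TPM elsewhere). Ryr2, the sarcoplasmic Ca2+ release channel, differed by 6.90 and Actn2, an anchor at the Z disc, by 8.67. All 5 inhibitors and calmodulin-binding proteins were called lower in heart, as were 5 of 8 other CaM kinases. The mean of the other 6 tissues includes cortex, where the genes of both groups were highest. Heart was not the lowest tissue throughout, as it was above liver for Nrgn, Gap43 and Pcp4 and below liver for Camk2n1 and Camk2n2. With each sample centred on its median, the counts in heart were 14 higher and 9 lower, and those of all genes moved from 2545 higher and 8215 lower to 4336 and 3958. In cortex the same centring gave 32 higher and 1 lower of the 45, and 4992 higher and 8166 lower of all genes in place of 7757 and 4421.

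Of the 76 SE events, 60 had 20 or more junction reads in both replicates of at least 1 tissue and 5 had them in all 7 tissues, while 4 had them in both replicates of no group. Most were near one end of the scale, and 17 had a mean PSI between 0.1 and 0.9 in some tissue. Enough reads of both forms for a test among tissues were present for 31 events, and 16 of them were called (adjusted p under 0.05 in the quasi-binomial model and a largest difference of at least 0.1), against a background of 13.4% of all SE events. The p value given below as that of a test among tissues belongs to the event over all its tissues, and not to the pair with the largest difference. The called events were 1 of 3 in Camk2a, 5 of 8 in Camk2b, 6 of 12 in Camk2d and 4 of 8 in Camk2g. An event missing from a tissue had too few reads there, or was not listed, and was not taken as absent.

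The called differences were large. Their median largest difference between tissues was 0.571, against 0.317 for all called events, and 9 of 16 (56.3%) reached 0.5, against 28.6% of all called events. The 16 events covered 12 exons, since an exon with different neighbours gives several events. Of these 12 exons, 11 had a length that is a multiple of 3, which keeps the reading frame, against 55.6% of all called exons and 42.2% of all tested exons. The exception was an exon of 89 bp near the 3′ end of Camk2d.

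Camk2a had a cassette exon of 33 bp at chr18:60969011-60969043 (mm10, plus strand) that was mostly skipped in cortex and mostly included in heart. Its PSI was 0.0668 and 0.0627 in cortex and 0.761 and 0.736 in heart, with 15273 and 15121 junction reads in cortex and 761 and 732 in heart. Lung had PSI values of 0.197 and 0.243 on 27 and 35 reads, and spleen had 0.0655 and 0.443 on 22 and 32 reads, so that the spleen replicates differed widely. The 1 ESC replicate with enough reads had a PSI of 0.627. The largest difference was 0.684, heart above cortex, and the test among tissues had an adjusted p of 2.58e-14 in the quasi-binomial model. Heart did not overlap cortex, lung or spleen. The event of Camk2a with the most reads, an exon of 76 bp at chr18:60977940-60978015, was included at PSI values of 0.902 to 1 in cortex, heart and spleen and was not called.

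In Camk2b, the event with the most reads was an exon of 45 bp at chr11:5981070-5981114 (minus strand), which was included in cortex and heart and nearly always skipped elsewhere. Its PSI was 0.828 and 0.845 in cortex and 0.775 and 0.718 in heart. Kidney, lung, spleen and ESC lay between 0 and 0.0901, and no sample of these overlapped cortex or heart. The largest difference was 0.823 (adjusted p among tissues = 1.04e-14, quasi-binomial model), and cortex and heart were not called apart. The heart values rest on 129 and 111 reads, whereas cortex had 13247 and 13495.

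Longer exons of Camk2b were also called. An exon of 114 bp at chr11:5978399-5978512 was the other with a difference above 0.5. Its PSI was 0.987 and 0.99 in cortex, 0.877 and 0.582 in heart and 0.311 and 0.192 in lung, and the order cortex, heart, lung held without overlap. The largest difference was 0.737 (adjusted p among tissues = 1.39e-07, quasi-binomial model). An exon of 129 bp at chr11:5976765-5976893 went the other way, with 0.00233 and 0.00259 in cortex and 0.234 and 0.298 in heart. Spleen, at 0.152 and 0.240, overlapped heart, and lung was at 0.144 and 0.161. Neither was called apart from heart, and kidney, liver and ESC lay between 0.0357 and 0.08. Another called exon of 129 bp, at chr11:5977812-5977940, was at 0.000326 and 0.000212 in cortex and 0.0851 and 0.117 in lung. An exon of 75 bp at chr11:5987057-5987131 fell from 0.975 and 0.978 in cortex to 0.806 and 0.514 in heart, where it had 37 and 31 reads.

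Camk2d had 3 consecutive cassette exons of 33, 60 and 42 bp in the linker, at chr3:126802937-126802969, chr3:126805857-126805916 and chr3:126808208-126808249 (plus strand), before a constant exon of 49 bp. The exons of 33, 60 and 42 bp joined directly to the exon of 49 bp are each measured against the same skipping reads, so these PSI values are not shares of isoforms and are not independent. Kidney, lung, spleen, ESC and fibroblasts mostly skipped all of them, and in these 3 events the PSI was at most 0.0738 there wherever reads sufficed. Cortex and heart used the exons differently.

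The 42 bp exon was common to cortex and heart. Its PSI was 0.799 and 0.869 in cortex and 0.719 and 0.715 in heart, and it was called against kidney, lung, spleen and ESC for both tissues. The difference between cortex and heart, 0.12, was also called (adjusted p = 1.9e-04 over all pairs, quasi-binomial model). The largest difference, cortex above kidney, was 0.813, and the test among tissues had an adjusted p of 1.36e-17 (quasi-binomial model).

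The 60 bp exon was included mainly in cortex. Joined to the 49 bp exon, its PSI was 0.833 and 0.886 in cortex, 0.169 and 0.186 in heart and 0 to 0.0236 in kidney, lung and ESC. Joined to the 42 bp exon, it was 0.99 and 0.984 in cortex, 0.128 and 0.125 in heart and 0.307 and 0.467 in lung, the last on 52 and 41 reads. The largest differences were 0.858 and 0.860, and the tests among tissues had adjusted p values of 4.76e-16 and 4.78e-16 in the quasi-binomial model. These were the largest differences of all 31 tested events.

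The 33 bp exon, which as background is the exon that distinguishes the nuclear δB isoform, had a PSI of 0.226 and 0.189 in cortex and 0.282 and 0.287 in heart. It was at most 0.0189 in kidney and lung. Its largest difference was 0.280 (adjusted p among tissues = 1.86e-10, quasi-binomial model), and both cortex and heart were called against kidney and lung. When the 42 bp exon followed the 60 bp exon, its PSI was 0.812 and 0.812 in cortex, 0.911 and 0.881 in heart and 0.717 and 0.856 in lung. The test among tissues passed narrowly (adjusted p = 0.0106, largest difference 0.110, heart above lung), but no pair was called. Heart and lung had an adjusted p of 0.370 over all pairs, and cortex and heart, at 2.9e-04, differed by less than 0.1. The call among tissues was lost with the replicate number as a block (adjusted p = 0.132), with limma on the logit of PSI (adjusted p = 0.498) and without heart replicate 1 or lung replicate 1.

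Near the 3′ end, the 89 bp exon of Camk2d at chr3:126841485-126841573 was read in all 7 tissues. Its PSI was 0.496 and 0.502 in cortex, 0.660 and 0.688 in heart, 0.720 and 0.641 in kidney, 0.633 and 0.660 in lung, 0.587 and 0.636 in spleen, 0.904 and 0.820 in liver and 0.610 and 0.710 in ESC. Cortex was the lowest and liver the highest, without overlap with any other tissue. The largest difference was 0.363 (adjusted p among tissues = 3.58e-05 in the quasi-binomial model, 0.0665 with limma on the logit of PSI), and liver rests on 79 and 101 reads.

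Camk2g had a pair of consecutive cassette exons in the same place of the gene, of 33 bp at chr14:20747819-20747851 and of 69 bp at chr14:20745792-20745860 (minus strand), between constant exons of 44 and 45 bp. The 33 bp exon joined to the 45 bp exon had a PSI of 0.808 and 0.864 in cortex, 0.296 and 0.230 in heart and at most 0.00686 in kidney, lung and spleen. Joined to the 69 bp exon, it had 0.619 and 0.653 in cortex, 0.390 and 0.359 in heart and at most 0.0454 elsewhere. The largest differences were 0.832 and 0.633, and the tests among tissues had adjusted p values of 3.55e-15 and 4.70e-13 in the quasi-binomial model. In both events cortex stood above heart, and heart above kidney, lung and spleen, without overlap. As in Camk2d, the events between the 44 and 45 bp exons share their skipping reads.

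Between the 44 and 45 bp exons, the 69 bp exon of Camk2g was used in every tissue and more in cortex. There its PSI was 0.780 and 0.841 in cortex, 0.395 and 0.4 in heart, 0.325 and 0.287 in kidney, 0.357 and 0.4 in lung, 0.340 and 0.321 in spleen, 0.304 and 0.297 in liver and 0.382 and 0.422 in ESC. Only the 6 pairs with cortex were called among its 21 pairs. The largest difference was 0.510 (adjusted p among tissues = 1.90e-11, quasi-binomial model). Between the 33 and 45 bp exons the order was the other way, with a PSI of 0.503 and 0.517 in cortex, 0.594 and 0.693 in heart and 0.975 to 1 in kidney, lung and spleen. There cortex was the lowest, without overlap, and the largest difference was 0.485 (adjusted p among tissues = 5.43e-08, quasi-binomial model). The event of Camk2g with the most reads, an exon of 55 bp at chr14:20771007-20771061, was included at 0.981 or more in all 14 tissue samples and was not called.

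**Figure D2:**
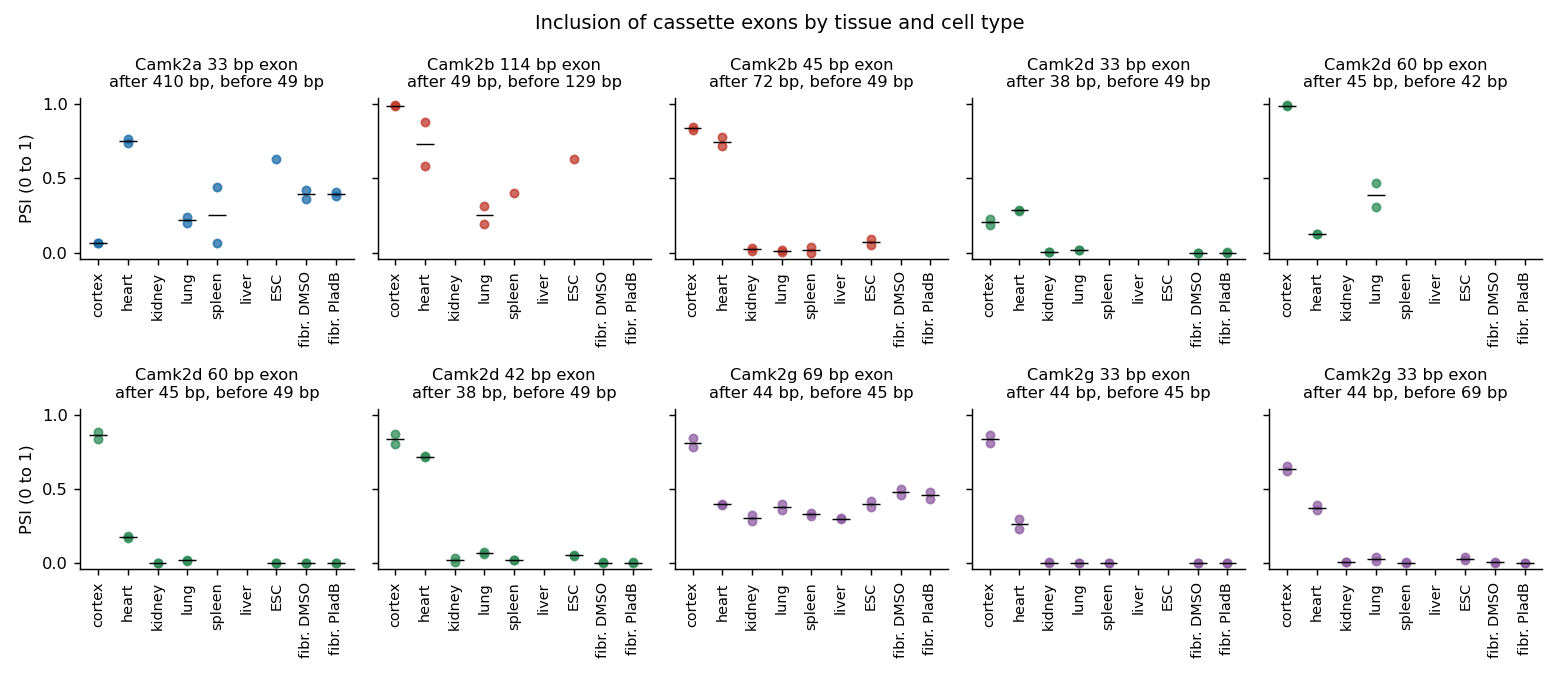
PSI (0 to 1) of the 9 events with a called difference of at least 0.5 and of the 33 bp exon of Camk2d; points are replicates with 20 or more reads and lines the mean of 2 replicates. Panel titles give the exon's length and those of its neighbours in the direction of transcription. Cortex and heart stand above the other tissues in most panels, and the 33 bp exon of Camk2a has its lowest values, 0.0668 and 0.0627, in cortex.

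The tests of the tissue pairs were also counted by whether cortex or heart was in the pair. Over the 21 pairs, 84 of 225 tests of the members' events were called, against a background of 9.8% of all events. With the replicate number as a block, 50 were called, and 8336 of the 276925 tests of all events. The counts by kind of pair that follow are without this block. A pair needed 10 reads of each form over its 2 tissues, so an exon skipped in both was not tested there. The 33 bp exon of Camk2g joined to the 45 bp exon was tested against cortex and heart, but not among kidney, lung and spleen. The kinds of pair therefore hold different events, and the differences between their shares were not tested. With cortex in the pair, 49 of 91 were called (53.8%, background 16%), and with heart but not cortex 30 of 56 (53.6%, background 11.2%). Among the other 5 tissues, 5 of 78 were called (6.41%, background 5.48%), 3 in the 129 bp exon of Camk2b at chr11:5976765-5976893 and 2 in the 89 bp exon of Camk2d. In all of these pairs except spleen with ESC, liver was a member. Cortex, heart and kidney were sequenced with longer reads than spleen, lung and ESC, and the authors trimmed the longer reads to the common length before alignment. Among these 3 alone 29 of 47 tests were called (61.7%, background 14.9%).

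Next, the alleles were compared within each tissue. Of 39 tests of the members in the 7 tissues, 4 were called, against a background of 6.15%, and all 4 were in Camk2d in heart, where 9 events were tested, 6 with an unadjusted p under 0.05, and 6.56% of all events were called. In cortex, 14 events were tested and 0 were called (background 8.93%), 2 with an unadjusted p under 0.05. In lung 0 of 7 were called (background 7.61%), in spleen 0 of 6 (5.77%), in ESC 0 of 2 (1.3%) and in kidney 0 of 1 (8.12%), with 1 unadjusted p under 0.05 among them, in lung. The largest allelic difference was in the 33 bp exon. On the C57BL/6J allele its PSI in heart was 0.546 and 0.468 (281 inclusion and 164 skipping reads, and 280 and 223), and on the SPRET/EiJ allele it was 0.0372 and 0.0546 (24 and 435 reads, and 29 and 352). The values of the alleles did not overlap, and ΔPSI, C57BL/6J minus SPRET/EiJ, was 0.461 (adjusted p = 8.7e-04, quasi-binomial model).

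The 60 bp exon went the same way in heart. Joined to the 49 bp exon, its PSI was 0.350 and 0.283 on the C57BL/6J allele and 0.0360 and 0.0541 on the SPRET/EiJ allele, a ΔPSI of 0.271. Joined to the 42 bp exon, it was 0.235 and 0.213 against 0.0434 and 0.0532, a ΔPSI of 0.176. The 42 bp exon after the 60 bp exon was included less often on the C57BL/6J allele, with 0.886 and 0.866 against 0.992 and 0.971, a ΔPSI of −0.105. The adjusted p values of these 3 were 0.0026, 0.0017 and 0.027 in the quasi-binomial model. The 42 bp exon joined to the constant exons had a ΔPSI of 0.0866 and was not called. The called events are not independent results. The 33 and 60 bp exons joined to the 49 bp exon share their skipping reads, and the other called events also involve the 60 bp exon.

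Other exons differed between the alleles in heart without being called. The 33 bp exon of Camk2a was at 0.789 and 0.766 on the C57BL/6J allele and 0.676 and 0.626 on the SPRET/EiJ allele, without overlap, a ΔPSI of 0.126 (adjusted p = 0.173, quasi-binomial model). In Camk2g, the 33 bp exon joined to the 69 bp exon had a ΔPSI of 0.195 (adjusted p = 0.248), and the 69 bp exon between the 44 and 45 bp exons had a ΔPSI of −0.139 (adjusted p = 0.320). The values of the alleles did not overlap in either event, and both rest on few reads, with 6 and 11 inclusion reads on the SPRET/EiJ allele for the former and 39 and 26 for the latter.

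The alleles of a library are measured in the same animal, and with the library as a block, which leaves 1 residual degree of freedom, the 4 events each had an adjusted p of 0.39, and the block left 0 of the 6628 heart events called. Without the block, limma on the logit of PSI gave adjusted p values of 0.033 for the 33 bp exon, 0.039 and 0.045 for the 60 bp exon and 0.11 for the 42 bp exon.

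In cortex the alleles of Camk2d were close. The 33 bp exon had a PSI of 0.203 and 0.185 on the C57BL/6J allele and 0.212 and 0.194 on the SPRET/EiJ allele, on 43 to 72 reads. The 60 bp exon joined to the 49 bp exon had 0.831 and 0.874 against 0.809 and 0.882. In lung, the 33 bp exon was at 0.0248 and 0.0293 against 0.0116 and 0. A test of the difference between tissues, chosen after seeing the data, compared the allelic ΔPSI in each pair of tissues.

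Of 73 such tests of the members, 2 were called, against a background of 0.0414% over all pairs and 0.16% for cortex with heart. Both were cortex minus heart, for the 33 bp exon (−0.47, adjusted p = 0.0090) and for the 60 bp exon joined to the 49 bp exon (−0.26, adjusted p = 0.0066, quasi-binomial model with an interaction of allele and tissue). These events share their skipping reads. Neither was called with limma on the logit of PSI (adjusted p = 0.54 and 0.61), with the library as a block (0.87 each) or without any 1 of the cortex and heart replicates.

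**Figure D3:**
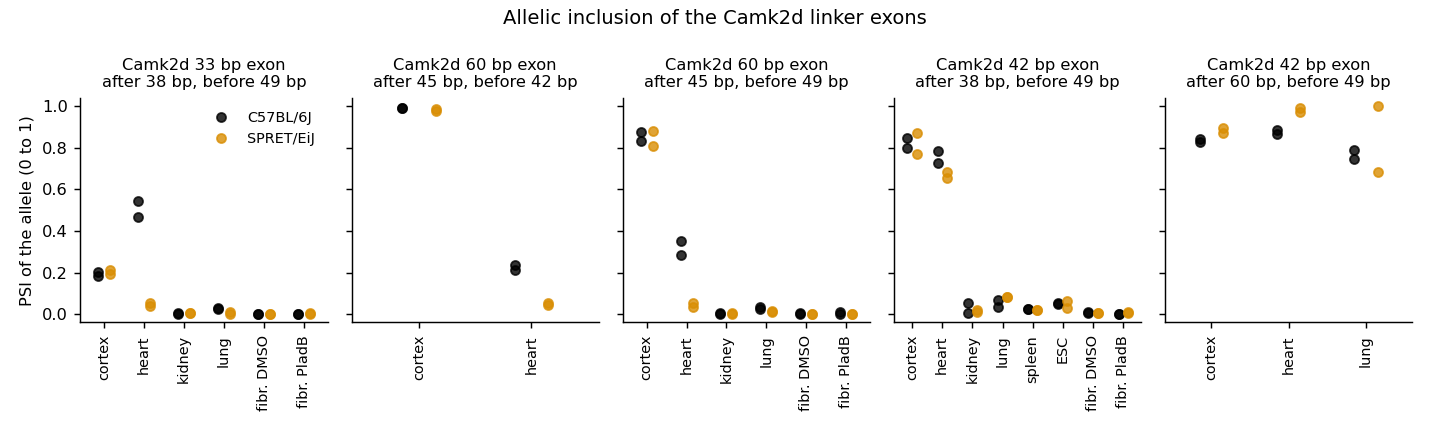
PSI (0 to 1) of the 33, 60 and 42 bp exons of Camk2d on the C57BL/6J allele (black) and the SPRET/EiJ allele (orange) in every tissue or cell type with 20 or more reads in both replicates of both alleles; each point is 1 replicate. In heart the alleles of the 33 bp exon stand apart, at 0.546 and 0.468 against 0.0372 and 0.0546, and in cortex they overlap.

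The allelic reads also give the share of reads that came from either allele at an event of each gene. This was read from the gene's event with the most reads, with an exact (Clopper-Pearson) 95% interval that covers counting error only, and it was not tested between tissues. For Camk2b, the C57BL/6J allele gave 49.0% (48.0 to 50.1) and 48.2% (47.2 to 49.3) of reads in the 2 cortex samples. It gave 93.7% (86.8 to 97.6) and 77.3% (66.2 to 86.2) in heart, 98.8% (95.9 to 99.9) and 96.3% (92.6 to 98.5) in lung, and 83.1% (72.3 to 90.9) and 85.8% (80.9 to 89.8) in ESC. In ESC the imprinted genes that served to check which column is which allele were not monoallelic (28.75% to 57.93%), so there the order rests on the allelic differences in PSI of all events, which correlated with those of the other groups at r = 0.491 to 0.707 (a description across events). Over all SE events, these libraries had 48.9% to 51.1% of reads on the C57BL/6J allele. Every sample of heart, lung and ESC was above the cortex samples.

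The events of Camk2b, which share reads with each other, were also read with the replicates summed. With the 45 bp event among them, the C57BL/6J share was 46.8% to 53.2% over 7 events in cortex. It was 97.5% to 98.5% over 4 events in lung and 79.2% to 85.2% over 3 events in ESC. Without the 45 bp event, it was 46.8% to 53.2% in cortex, 97.5% to 98.5% in lung, and 79.2% and 83.9% in ESC. In heart only the 45 bp event was read. For Camk2a, cortex was at 51.5% and 51.3%, and spleen at 75.9% (65.0 to 84.9) and 68.8% (57.3 to 78.9) on 79 and 77 reads. The event of Camk2d with the most reads was at 52.5% and 49.2% in heart. With the replicates summed, the 11 events of Camk2d read there lay between 40.1% and 54.4%. A single event therefore does not give the share of the whole gene. For Camk2d in fibroblasts, 11 events lay between 34.1% and 38.1% with DMSO and 7 events between 27.5% and 31.9% with pladienolide B, where all SE events had 53.1% to 53.8%. Camk2g was also below this, at 35.1% to 44.2% over 8 events with DMSO and 37.7% to 50% over 15 events with pladienolide B. The 33 bp exon of Camk2a was at 31.9% with pladienolide B.

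**Figure D4:**
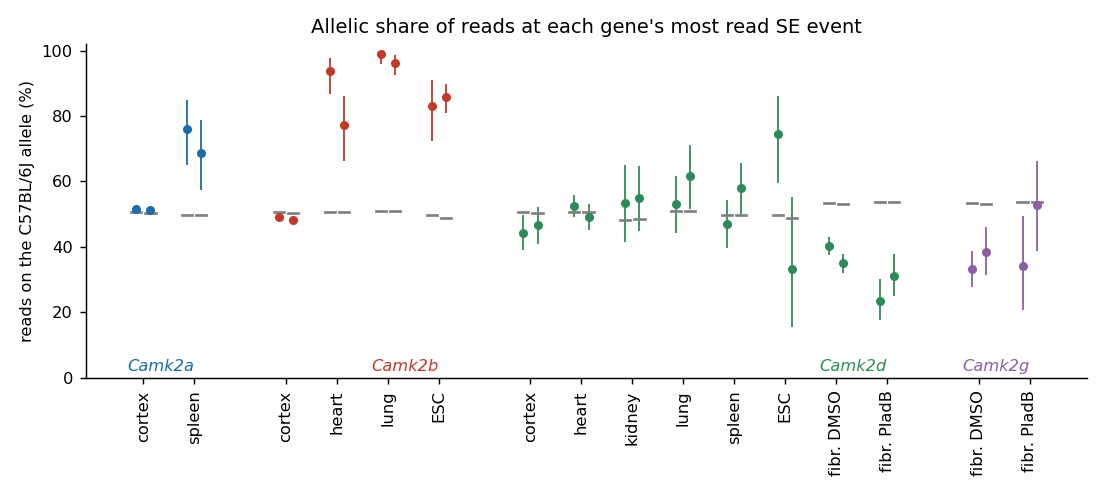
Share of allelic reads on the C57BL/6J allele (%) at the SE event with the most reads of each gene; each point is 1 replicate with its exact 95% interval for counting error, and the grey lines are the share over all SE events of that library. Camk2b lies near 49% in cortex and between 77.3% and 98.8% in heart, lung and ESC.

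Fibroblasts expressed Camk2g and Camk2d, and pladienolide B was followed by less of both. Camk2g went from 123 and 122 TPM with DMSO to 26.3 and 29.1 TPM, a log2 difference of −2.14 (SE 0.06, adjusted p = 4.91e-06, limma). Camk2d went from 24.3 and 23.9 TPM to 6.54 and 6.39 TPM, a log2 difference of −1.88 (SE 0.05, adjusted p = 4.89e-06). Camk2a was at 1.41 and 1.33 TPM with DMSO and 1.46 and 1.58 TPM with pladienolide B, and was not called (adjusted p = 0.316). Of the 3 genes tested, 2 were called lower, against 63.6% of all genes, and 0 higher, against 7.7%.

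The median of all genes fell by 1.15 on the log2 scale, and relative to it Camk2g was at −0.99, Camk2d at −0.73 and Camk2a at 1.30. When each sample was centred on its median, Camk2g was lower by a log2 difference of −0.69 and was called, Camk2d at −0.43 was below the 1.5-fold limit and Camk2a at 1.59 was called higher. Of the 27 pathway genes tested in fibroblasts, 21 were called lower and 0 higher, among them Camkk1, a kinase that activates other CaM kinases, by a log2 difference of −4.17, and Ppm1f, a phosphatase of CaMKII, by −2.33. Centring gave 3 lower and 7 higher, and for all genes 3842 lower and 5754 higher in place of 8641 and 1045.

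No exon event of the 4 genes was called with pladienolide B. Of 14 events tested, 0 were called, against 19.3% of all events, 5 had an unadjusted p under 0.05 in the quasi-binomial model and 8 with limma. In Camk2g, 3 events had adjusted p values under 0.05 (0.0127, 0.0262 and 0.0455), with ΔPSI values of −0.015, −0.021 and −0.020 that were below the limit of 0.1. All 14 had lower PSI with pladienolide B, by 0.0006 to 0.0670, as had 78.3% of the 21472 events tested, whose median ΔPSI was −0.0147. The 33 bp exon of Camk2a was at 0.364 and 0.424 with DMSO and 0.407 and 0.378 with pladienolide B. The 69 bp exon of Camk2g was at 0.462 and 0.497 and then at 0.434 and 0.481. The 89 bp exon of Camk2d was at 0.673 and 0.692 and then at 0.697 and 0.535, with overlap. Between alleles, 0 of 7 events were called with DMSO (background 7.89%) and 0 of 5 with pladienolide B (background 7.37%). The allelic difference changed with treatment in 0 of 5 events (background 0.0635%). None of these allelic tests had an unadjusted p under 0.05 in the quasi-binomial model or with limma.

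Genes with a like pattern over the 7 tissues were named by the Pearson correlation of mean log2(TPM + 0.1), a description over 7 means that share their libraries. For Camk2a the nearest were Asrgl1 (r = 0.989), 2900097C17Rik and A930029G22Rik, and for Camk2b A330076H08Rik (r = 0.993), Mir370 and Gm15721. For Camk2d they were mmu-mir-6403 (r = 0.986), Ttc17 and Fgf2, and for Camk2g they were Klc1 (r = 0.995), Eri3 and Gm1673. The 69 bp exon of Camk2g, the member event with the largest difference among those read in all 7 tissues, was compared with 8128 events. The nearest in PSI were an exon of 24 bp in Flna (root mean square difference 0.0410), then exons of Lphn2, Puf60, Akap2 and Klc1.

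Splicing regulators are given by their levels only, and their part in the exon patterns was not tested. Rbfox1 was at 244 and 245 TPM in cortex and 27.7 and 27.9 TPM in heart, and at most 1.32 TPM in every other group. Ptbp1, which represses many neuronal and muscle exons, was lowest in cortex (25.0 and 22.4 TPM) and heart (31.4 and 32.2 TPM). Rbm20, a regulator known for Camk2d splicing in heart, was at 159 and 139 TPM in heart, 64.4 and 21.2 TPM in ESC and at most 4.05 TPM elsewhere. Rbm24 was at 145 and 143 TPM in heart and 16.02 and 16.15 TPM in cortex. Rbfox3, Celf4 and Nova1 were highest in cortex, with 110 and 124, 302 and 318, and 42.4 and 41.0 TPM.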

How the data were processed

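Strand-specific mRNA-seq was measured in 18 samples. Per the labels and the study's methods, the authors aligned reads with HISAT2 2.0.1 to mm10 and a SPRET/EiJ version of it, gave each read to the closer genome, and counted junction reads with rMATS (Ensembl release 74). Liver came from an earlier study. The deposited SE tables hold inclusion and skipping junction counts per replicate as lists, and a length score per form. They also hold the authors' p values, FDR and PSI differences between alleles or treatments, which were not used. The expression table holds TPM, which the authors made from featureCounts with fractional counts. The expression table gives no read counts behind a TPM value. Junction reads per sample were 46558287 to 129496306 in tissues and 129067054 to 151755602 in fibroblasts, and 10338947 to 48555783 per allele.

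PSI was computed from the counts and form lengths. No label named the pladienolide B allelic table, which was read by its name. The allele order was checked on imprinted genes: in every group but ESC, C57BL/6J reads made up 98.97% or more at maternally expressed genes and 5.67% or less at paternally expressed genes. In ESC these genes were at 28.75% to 57.93%, and the order was read from the allelic ΔPSI of events with 20 reads per allele and replicate, which correlated with that of each other group at 0.491 to 0.707 (0.502 to 0.789 among the other groups). Events needed 20 reads per replicate (and allele) and 10 reads of each form. For alleles, PSI from allelic and from all reads had to differ by at most 0.1. A quasi-binomial model was fitted to every autosomal event, with dispersions moderated by limma 3.58.1 in R 4.3.3, F tests and Benjamini-Hochberg adjustment over all events (and pairs). Calls needed an adjusted p under 0.05 and a ΔPSI of at least 0.1. TPM was fitted with limma on log2(TPM + 0.1) for genes at 1 TPM or more in at least 2 samples, with calls at 2-fold between tissues and 1.5-fold for treatment. Fold changes on this scale understate those of low genes. The scripts were tested on simulated data. Alternatives were other read minimums, priors, pseudocounts and filters, limma on the logit of PSI, centring on the sample median, replicate blocks and leaving out each replicate.

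Alleles of 1 library are paired by design, and their deviations correlated at 0.118 to 0.712 in tissues and −0.003 to 0.106 in fibroblasts. The organs came from 2 animals, but whether a replicate number marks the same animal in each organ is not given in the sources used here. Deviations of same-numbered tissues correlated at −0.103 to 0.304 for TPM and −0.109 to 0.0874 for PSI, and not every pair was above 0.1, so the fits were made without the replicate number, with it as an alternative. Described in full were events called among tissues with a difference of at least 0.5, called between alleles, or with the most reads of their gene. Other events were given by counts or chosen after their values were seen. The genes and gene lists were chosen with earlier results of these data known. Hdac4 was left out of the pathway list because 2 rows carried its name. Some genes of that list are not reported here by name. No sequences of these genes were used here. P values of PSI rest on the spread between the 2 samples of each group fitted, moderated toward that of all events, with a dispersion of at least 1. Those of TPM rest on 1 moderated spread per gene, shared by the groups in a fit. The allelic p values without the block do not use the pairing of the alleles in a library.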

Additional observations from a re-analysis of the deposited data

Results flagged for a closer look

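In 5 results, groups differed in an allelic measure. The allelic ΔPSI of the 33 bp exon of Camk2d (C57BL/6J minus SPRET/EiJ) differed by −0.470 between cortex and heart, and that of its 60 bp exon joined to the 49 bp exon differed by −0.265. Both passed the interaction test and neither did with the library as a block or with limma.

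The share of reads on the C57BL/6J allele at the 45 bp event of Camk2b was higher than in cortex by 36.9 percentage points in heart, by 49.0 percentage points in lung and by 35.8 percentage points in ESC. Every cortex sample was below, and every sample of the other groups above, the share over all SE events of its library. These 3 differences were not tested. In ESC, imprinted genes did not show which column was the C57BL/6J allele, and the order there rests on the allelic ΔPSI of all events.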

How the results depend on the processing

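With the replicate number or library as a block, the events called between tissue pairs went from 84 to 50, where all events went from 27130 to 8336, and the allelic calls in tissues went from 4 to 0. The block changed the number of other calls by less than 1.5 times, except for the allelic difference between tissues, below. The allelic difference between tissues, 2 calls as reported, gave 1 with a minimum of 50 reads, 0 with limma on the logit of PSI and 0 with the block. Centring on the sample median changed the pathway counts to 1 lower in cortex, 14 higher and 9 lower in heart, and 7 higher and 3 lower with pladienolide B. Leaving out 1 replicate at a time gave 15 to 18 events called among tissues, 79 to 91 between pairs, 4 to 5 between alleles in tissues and 0 to 2 for the allelic difference between tissues. It gave 62 to 65 TPM differences between pairs and 2 after pladienolide B. For the pathway genes it gave 38 to 41 higher and 0 lower in cortex, 7 to 9 higher and 17 to 20 lower in heart, and 0 to 1 higher and 19 to 21 lower with pladienolide B. The counts of 0 in fibroblasts stayed at 0. For alleles this left 1 library per allele, which was assumed to vary like those of the other groups, and is no check of the spread. Centring on the sample median turned the TPM difference of Camk2b to −0.126 between lung and liver, −1.39 between spleen and liver and −1.58 between kidney and liver, of Camk2d between ESC and liver to −0.365 and between cortex and heart to −1.32, and of Camk2g to −0.0609 between kidney and liver and −0.0728 between spleen and liver. With 2 replicates per group and few reads for Camk2a outside cortex and heart and for Camk2b outside cortex, small differences in PSI could not be resolved there. The causes of these changes were not tested.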

Other observations

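Retained introns were listed for fibroblasts only, and among the 4 genes only Camk2b had any. An intron at chr11:5970132-5970161 had 20 and 29 retained reads with DMSO against 2 and 0 spliced reads, and 11 and 32 against 0 and 0 with pladienolide B. An intron at chr11:5972727-5972812 had 7 and 15 retained against 13 and 18 spliced reads with DMSO, and 1 and 7 against 19 and 17 with pladienolide B. The retained share, corrected for form length, overlapped between treatments in the first intron. In the second it was 0.255 and 0.347 with DMSO and 0.0324 and 0.208 with pladienolide B, without overlap. No test was made on so few reads.

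Some markers of other cell types were present. In cortex, Ttr of the hepatocyte list was at 1422 and 1223 TPM, while Alb and Apoa1 were below 1 TPM. The skeletal muscle list summed to 4108 and 3773 TPM in heart, led by Ckm. Smooth muscle markers summed to 680 and 647 TPM in lung, 203 TPM in each heart sample and 3798 and 3810 TPM in fibroblasts with DMSO, led by Acta2. Hba-a1 was at 295 and 1086 TPM in the spleen samples.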
